A study of Homo sapiens with 16 samples.

Results

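Small ribosomal subunit protein mRNAs were examined in human U2OS-TR cells before and after induction of a cap methyltransferase mutant. The group was defined by name as the genes for the proteins of the cytoplasmic 40S subunit. All 28 were found by their GENCODE symbols among the 60107 genes of the count tables. The 40S subunit binds the capped end of an mRNA, scans to the start codon and decodes the message. Its proteins sit on the head, which includes the beak, or on the body and platform. Most ribosomal protein mRNAs begin with a C followed by a run of pyrimidines, the 5′-terminal oligopyrimidine (TOP) sequence, through which LARP1 and mTOR signalling control their translation and stability.

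U2OS-TR is an osteosarcoma line that carries the tetracycline repressor. The transgene line, a single clone selected for high expression, also carries ΔN-RNMT, a cytoplasmic form of the cap N7-methyltransferase RNMT with its methyl donor site inactivated, under a CMV promoter with tetracycline operators. It gave 5 uninduced libraries and 5 libraries induced with doxycycline. The parental line, which has the repressor and no transgene, gave 3 libraries without doxycycline and 3 with it, as a control for the drug. All cells were split 48 h before the time of drug addition and collected 24 h after it, at 1 μg/ml for the treated cells. The protocol recorded with the libraries lists that dose for every one of them, whereas the sample names and the study's design give it to the induced and treated cells alone, and this was used. The RNA was cytoplasmic, and QuantSeq REV reads, which start at the poly(A) end, were counted per gene as tags.

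Depth was 12527183 to 23251834 gene counts per library in the transgene line and 1473286 to 3214808 in the parental line, which was sequenced at another facility with longer reads. The effects of line, sequencer and read length cannot be told apart. RNMT, which checks the labels, was at 55.6 to 112.5 CPM (counts per mega-count of the scaled library) in uninduced and 265.8 to 458.5 CPM in induced libraries (log2 fold change 2.22, standard error 0.23, adjusted P = 0.00805 by edgeR). In the parental line it was at 73.4 to 124.4 CPM without and 56.2 to 90.5 CPM with doxycycline. Of the 9 mesenchymal and bone lineage markers, TWIST1 was at 0 throughout the transgene line, and their summed level was 402 to 937 CPM uninduced and 729 to 1240 CPM induced. The 8 epithelial, leucocyte and endothelial markers summed to between 3.80 and 19.8 CPM in all 16 libraries. In bulk RNA, fewer cells of a type and less RNA per cell cannot be told apart.

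The start of the mRNA is shown for 12 members, chosen to set the 9 members that fell by more than 1.5-fold beside 3 that did not pass the test. Each is 30 bases of RefSeq sequence (GRCh38.p14), with the annotated start base at position 11. Capitals mark the longest run of C and T that overlaps the 5 bases on either side of that start.
RPS3 (chr11:75399508-75399537, plus strand): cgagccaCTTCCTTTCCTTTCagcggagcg
RPS12 (chr6:132814559-132814588, plus strand): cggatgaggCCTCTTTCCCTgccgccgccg
RPS14 (chr5:150449720-150449749, minus strand): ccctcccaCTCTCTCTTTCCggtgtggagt
RPS9 (chr19:54200848-54200877, plus strand): gcttccgcgCCTCTTTCTCagtgaccgggt
RPS3A (chr4:151099618-151099647, plus strand): cccacttccgCCCTTTTggctctctgacca
RPS27A (chr2:55232678-55232707, plus strand): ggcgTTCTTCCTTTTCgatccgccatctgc
RPS4X (chrX:72277229-72277258, minus strand): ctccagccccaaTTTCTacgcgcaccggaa
RPS15 (chr19:1438386-1438415, plus strand): aggcgcggaCCaaagcgatctcttctgagg
RPS28 (chr19:8321486-8321515, plus strand): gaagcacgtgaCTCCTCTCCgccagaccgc
RPS6 (chr9:19380217-19380246, minus strand): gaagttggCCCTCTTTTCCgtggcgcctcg
RPS23 (chr5:82278335-82278364, minus strand): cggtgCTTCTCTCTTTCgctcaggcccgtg
RPS24 (chr10:78033853-78033882, plus strand): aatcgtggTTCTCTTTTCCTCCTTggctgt
The first 6 had a run of at least 5 pyrimidines that began with C at the annotated start itself and fell on induction. RPS4X, RPS15 and RPS28 lacked it at that base and fell too, and RPS6, RPS23 and RPS24 had it without passing the test. The split rests on the exact annotated base. RPS28 has a run of 9 that begins with C 1 base after it. The study treats RPS4X as a TOP mRNA and found its capped end at the RefSeq 5′ end.

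All 28 mRNAs passed the filter of a base mean above 20 counts in the transgene line, and 14 of them fell on induction of ΔN-RNMT while none rose. Across all 13038 genes tested, 19.8% fell and 20.0% rose. Their median log2 fold change was -0.45, against 0.04 for all genes, with 23 of the 28 values below 0 and 5 above, where 47.9% and 52.1% of all genes lay. An unadjusted P below 0.05 was reached by 17 members and by 53.3% of all genes. Of the 14, 9 fell by more than 1.5-fold, a limit passed downward by 16.8% of all genes. The values of the 5 induced libraries all lay below the 5 uninduced ones for 7 members, of which 6 were called, against 4.22% of all genes, and all above for none, against 3.08%.

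The test was edgeR's quasi-likelihood F test, with P values adjusted over all genes by Benjamini-Hochberg. They depended on the libraries and on the model. With libraries scaled by total counts alone, 7 members fell and 0 rose, where 10.7% of all genes fell, and the median of all genes was 0.28, so the changes are relative to the TMM reference. With 1 surrogate variable, or without uninduced replicate 3 and induced replicate 5 together (a setting added after seeing the data), 0 members passed by edgeR. In all, 1 and 0 genes passed. The members' medians were -0.42 and -0.43, and 16 and 15 members had an unadjusted P below 0.05. The share of all genes at that limit was not computed for these fits, and it was 53.3% in the main fit. For the 10 fits that left out a single library, the share of all genes that fell is given in brackets. The count of members was 6 without induced replicate 4 (7.14%). It was 8 without uninduced replicate 2 (9.53%) or induced replicate 1 (7.27%), and 9 without uninduced replicate 1 (11.5%) or induced replicate 3 (9.14%). It was 10 without uninduced replicate 4 (14.6%), 11 without induced replicate 5 (15.4%) and 14 without uninduced replicate 3 (15.3%). It was 15 without uninduced replicate 5 (27.4%) and 16 without induced replicate 2 (23.8%). The share of all genes that fell thus changed between these fits as well. The study describes the parental libraries as coming from 3 cultures per group. It calls the libraries of the transgene line biological replicates without naming their cultures. The P values of that line measure the spread between these libraries.

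**Figure D1:**
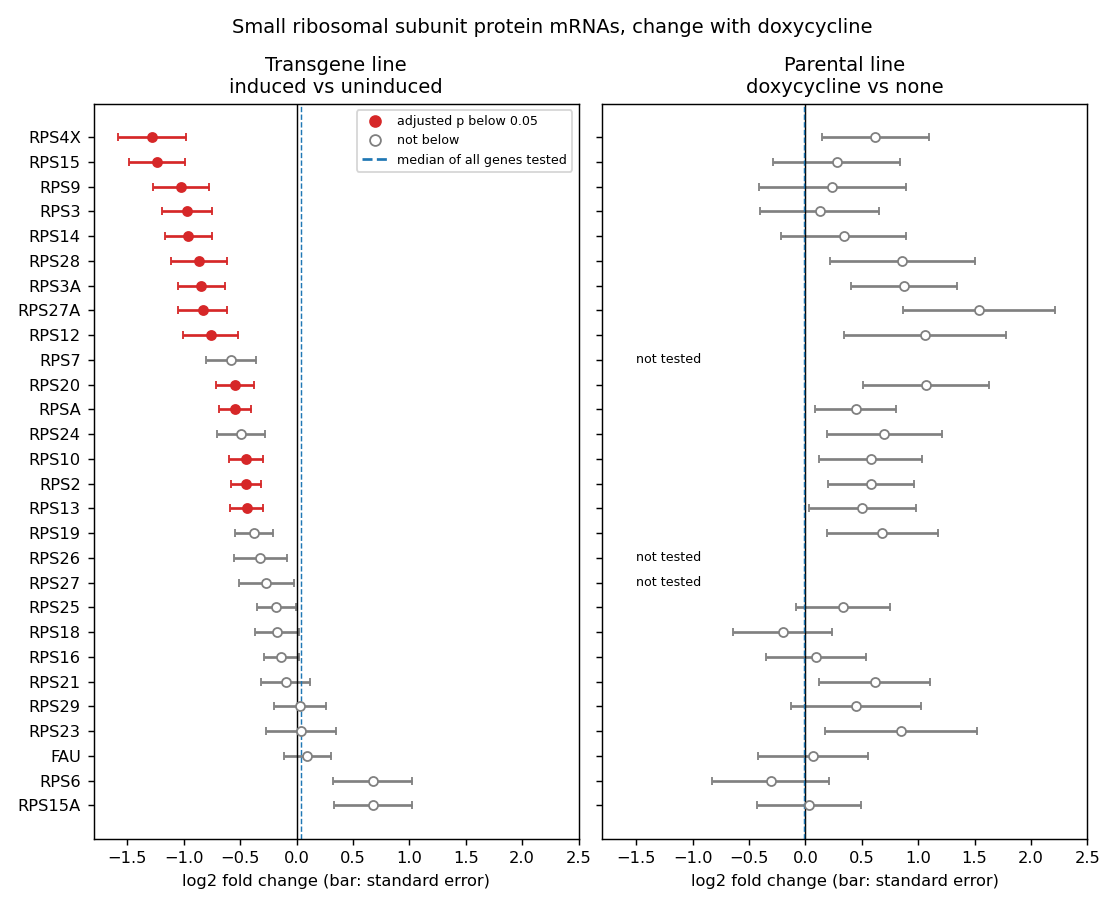
Log2 fold change with doxycycline (points, with standard errors) of the 28 mRNAs in the transgene line (left, 5 against 5 libraries) and the parental line (right, 3 against 3), ordered by the transgene line. Filled red points passed an adjusted P of 0.05, 14 on the left and 0 on the right, and the dashed line is the median of all genes tested. RPS7, RPS26 and RPS27 were not tested in the parental line.

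Of the 12 head proteins, 7 mRNAs fell and the median was -0.50. RPS3, which lines the mRNA entry channel (ENSG00000149273, chr11:75399515-75422280, plus strand of GRCh38 as are all gene positions here), was at 2973, 3259, 4184, 2892 and 1840 CPM in uninduced replicates 1 to 5 and at 1367, 2015, 1317, 1372 and 1676 CPM in induced replicates 1 to 5. Uninduced replicate 5 lay below induced replicate 2, and the other 4 uninduced libraries were above all induced ones. On the log2 scale RPS3 fell by 0.97 (standard error 0.22, adjusted P = 0.0175). RPS27A (ENSG00000143947, chr2:55231903-55235853, plus strand) encodes ubiquitin fused to a protein of the beak and had the highest tag count of the group. Its level was 45400, 48790, 49320, 40570 and 31660 CPM uninduced and 26060, 33130, 25130, 20820 and 15870 CPM induced. The groups overlapped at uninduced replicate 5 and induced replicate 2 alone, and the gene fell by 0.83 (standard error 0.22, adjusted P = 0.0187).

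RPS12, another beak protein (ENSG00000112306, chr6:132814569-132817564, plus strand), was at 11000, 11890, 11730, 11200 and 9456 CPM uninduced and 7032, 9288, 7027, 6076 and 3204 CPM induced. The groups did not overlap, with induced replicate 5 far below the rest, and the fall was 0.76 (standard error 0.24, adjusted P = 0.0303). RPS15 (ENSG00000115268, chr19:1438358-1440495, plus strand), a head protein needed for late maturation of the subunit, had few tags. It was at 24.4, 24.5, 33.1, 20.9 and 14.4 CPM uninduced and 8.35, 14.6, 10.8, 8.11 and 7.84 CPM induced. Uninduced replicate 5 again reached the induced range, and RPS15 fell by 1.24 (standard error 0.25, adjusted P = 0.0175).

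RPS28 (ENSG00000233927, chr19:8321158-8323340, plus strand), near the mRNA exit, was at 590.5, 655.6, 808.2, 541.6 and 369.3 CPM uninduced and 250.6, 372.8, 253.2, 268.3 and 484.4 CPM induced. Induced replicate 5, the lowest induced library for 12 members, was the highest induced library for RPS28, as for RPS26. For RPS28 it lay above uninduced replicate 5, as did induced replicate 2. The fall was 0.86 (standard error 0.25, adjusted P = 0.0227). RPS10 and RPS20 are the head proteins that the ligase ZNF598 ubiquitinates on collided ribosomes. RPS10 (ENSG00000124614, chr6:34417454-34426069, minus strand) was at 3470, 3431, 2873, 3337 and 3263 CPM uninduced and 2456, 2856, 2554, 1988 and 2113 CPM induced. Its groups met without overlap at uninduced replicate 3 and induced replicate 2, and it fell by 0.45 (standard error 0.15, adjusted P = 0.0345). RPS20 (ENSG00000008988) was at 6128, 6302, 6819, 5889 and 5072 CPM uninduced and 4624, 4975, 4424, 3441 and 3234 CPM induced. The groups met without overlap between uninduced replicate 5 and induced replicate 2, and the fall was 0.55 (standard error 0.17, adjusted P = 0.0286).

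The other 5 head mRNAs did not pass. RPS19, the first gene found mutated in Diamond-Blackfan anaemia, was at 7561 to 9846 CPM (median 7976) uninduced and 4649 to 7492 CPM (median 6957) induced. These ranges did not overlap, but the log2 fold change was -0.38 with an adjusted P of 0.0885. RPS16 and RPS18, which reach towards the decoding centre and the large subunit, had log2 fold changes of -0.14 and -0.17, and RPS25, known for its part in internal initiation, had -0.18. RPS29, a small zinc-binding protein, was at 0.03, with uninduced libraries from 3912 to 10590 CPM that enclosed the induced ones.

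**Figure D2:**
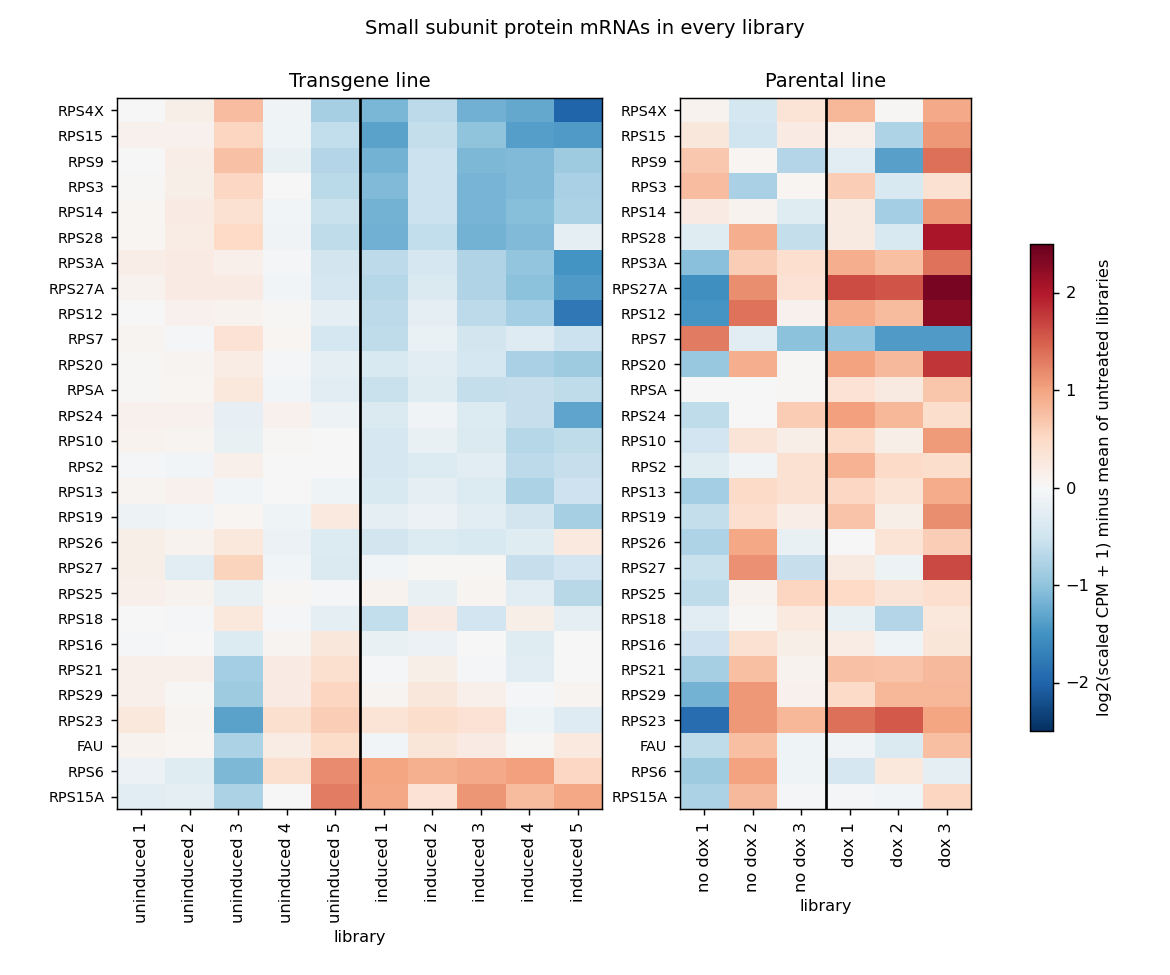
Each member's log2(scaled CPM + 1) in every library minus its mean over the untreated libraries of the same line, with members in rows and libraries in columns (5 uninduced and 5 induced, left; 3 without and 3 with doxycycline, right). Blue is lower and red higher. Uninduced replicates 3 and 5 depart from their group in opposite directions, and induced replicate 5 was the lowest of the 10 libraries for 10 members.

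Of the 16 proteins of the body and platform, 7 mRNAs fell and the median was -0.45. RPS4X (ENSG00000198034, chrX:72255679-72277248, minus strand), an rRNA-binding protein of the body, fell by 1.29 (standard error 0.30, adjusted P = 0.0175). It was at 5957, 6495, 10050, 5570 and 3310 CPM uninduced and 2667, 3747, 2572, 2416 and 1477 CPM induced. Uninduced replicate 3 had more than any other library and uninduced replicate 5 was within the induced range. RPS9 (ENSG00000170889, chr19:54200809-54249003, plus strand), which helps form the mRNA entry site, was at 2538, 2828, 4165, 2197 and 1519 CPM uninduced and 1106, 1720, 1157, 1164 and 1360 CPM induced. It showed the same order of uninduced libraries and the same overlap, and fell by 1.03 (standard error 0.25, adjusted P = 0.0177).

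RPS14, a platform protein encoded in the region lost in the 5q- syndrome (ENSG00000164587, chr5:150442635-150449739, minus strand), was at 15060, 16810, 18860, 13980 and 9850 CPM uninduced and 6441, 9991, 6505, 6949 and 8402 CPM induced. Uninduced replicate 5 lay just below induced replicate 2, and the fall was 0.96 (standard error 0.21, adjusted P = 0.0175). RPS3A (ENSG00000145425, chr4:151099624-151104642, plus strand), also on the platform, was at 461.8, 471.9, 446.1, 401.8 and 298.6 CPM uninduced and 260.2, 304.8, 243.5, 206.4 and 144.3 CPM induced. It overlapped at the same pair of libraries and fell by 0.84 (standard error 0.21, adjusted P = 0.0177).

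RPSA (ENSG00000168028, chr3:39406716-39426255, plus strand), the solvent-side protein also known as the laminin receptor precursor, was at 101.2, 102.4, 119.5, 94.3 and 81.0 CPM uninduced and 67.0, 80.2, 65.5, 65.8 and 63.2 CPM induced. The groups did not overlap, although uninduced replicate 5 and induced replicate 2 were close. Its fall was 0.55 (standard error 0.14, adjusted P = 0.0187). RPS2 (ENSG00000140988, chr16:1962058-1964841, minus strand), near the mRNA entry, was at 212.8, 211.3, 240.3, 220.8 and 218.1 CPM uninduced and 164.7, 174.9, 182.1, 138.9 and 146.7 CPM induced. Uninduced replicate 5 was not low for this gene, the groups were well apart, and it fell by 0.45 (standard error 0.13, adjusted P = 0.0236). RPS13 (ENSG00000110700, chr11:17074388-17077715, minus strand), which contributes to a contact with the large subunit, was at 1242, 1277, 1120, 1171 and 1098 CPM uninduced and 903.9, 1012, 924.3, 678.3 and 827.9 CPM induced. There was no overlap, and the fall was 0.44 (standard error 0.15, adjusted P = 0.0342).

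Among the 9 other members of the body and platform, RPS7 and RPS24, both Diamond-Blackfan genes, had log2 fold changes of -0.58 (adjusted P = 0.0561) and -0.49 (adjusted P = 0.0815). RPS26, at the mRNA exit, and RPS27, a zinc-binding protein, had -0.32 and -0.27 at levels under 10 CPM. RPS21 had -0.10, RPS23, at the decoding centre, 0.04, and FAU, a ubiquitin-like protein fused to a 40S protein, 0.10. RPS6, the target of S6 kinase, had 0.67 (standard error 0.35, adjusted P = 0.129). It was at 689.1, 616.9, 349.5, 1016 and 1741 CPM uninduced and 1509, 1411, 1470, 1551 and 1097 CPM induced. Uninduced replicate 5 was the highest library of all and the other 4 were below every induced one. RPS15A, whose protein lies in the body, had 0.68 (standard error 0.34, adjusted P = 0.123) and ran from 46.2 to 197.2 CPM (median 68.6) uninduced and 103.4 to 173.4 CPM (median 158.2) induced. Both passed as higher when uninduced replicate 5 was left out.

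Uninduced libraries departed from each other in opposite directions for different members. Uninduced replicate 3 was the highest of its group for 14 members, RPS4X, RPS9, RPS3 and RPS14 among them, and the lowest for 10, which included RPS6, RPS15A, RPS23, RPS21, RPS29 and FAU. Uninduced replicate 5 was the lowest for 16 members and the highest for 8. Induced replicate 2 was the highest induced library for 20 members. In the fits without uninduced replicate 3, uninduced replicate 5 or induced replicate 2, given above, all 14 calls remained.

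**Figure D3:**
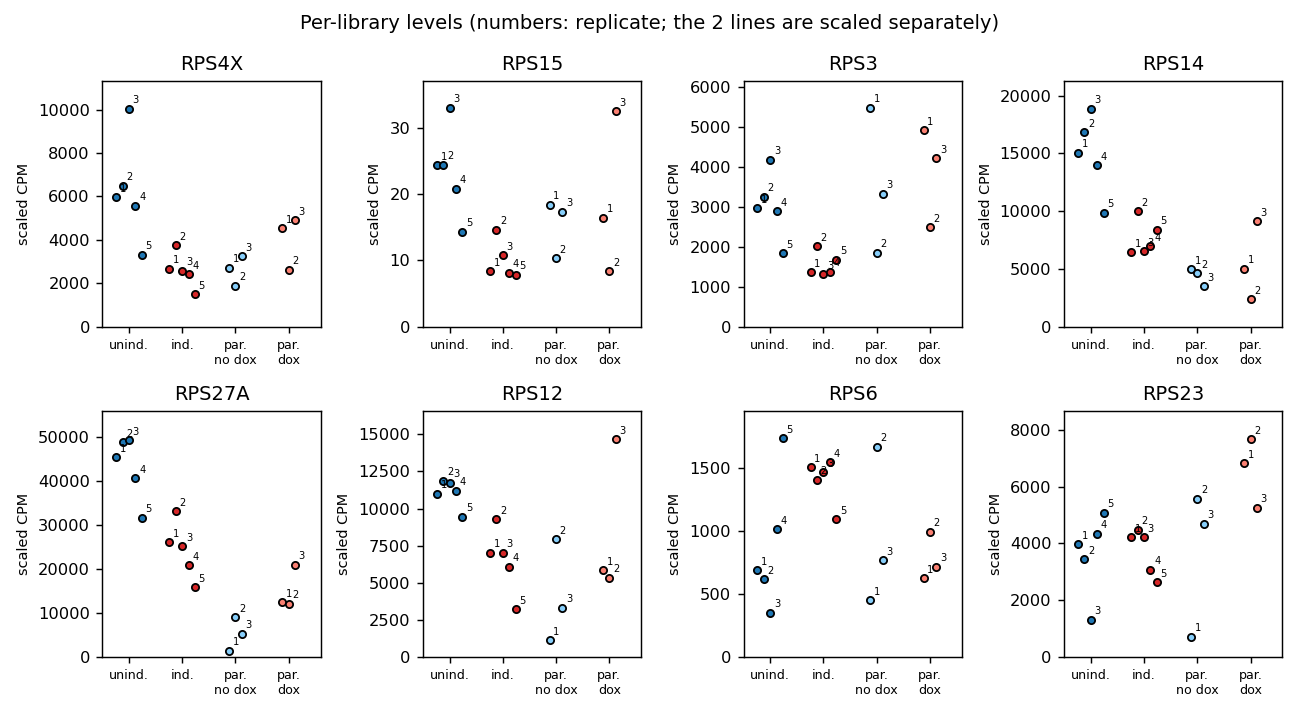
Scaled CPM of 8 members in every library (points, numbered by replicate) for uninduced, induced, parental without and parental with doxycycline, on linear axes from 0. RPS4X, RPS15, RPS3, RPS14, RPS27A and RPS12 have lower means in induced libraries, with overlap for all but RPS12, RPS6 in induced libraries lies above all uninduced libraries but replicate 5 and was not called, and RPS23 in induced libraries lies within the uninduced range. The lines were scaled separately, so levels compare only within a line.

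Taken as a share of all gene counts, without TMM scaling, the 28 genes held 12.2% ± 0.546 of tags when uninduced and 9.43% ± 1.35 when induced (SD, n = 5 each). By replicate, the uninduced cells held 12.5%, 12.9%, 11.8%, 12.4% and 11.5% and the induced ones 9.69%, 11.4%, 9.62%, 8.73% and 7.73%. Every induced library was below every uninduced one. RPS27A alone made up 3.94% ± 0.490 uninduced and 2.60% ± 0.583 induced, a difference of -1.34 of the -2.80 percentage points seen for all 28. The other 27 genes had a difference of -1.46 points, and 19 of the 28 had a lower mean share. The count over all genes is not given. With total counts alone the median log2 fold change was -0.22 for the members and 0.28 for all genes tested. Proteins of the 60S subunit held 11.1% ± 0.138 and 9.85% ± 0.380.

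In the parental line the share went the other way. It was 3.13%, 6.20% and 5.10% without doxycycline and 6.92%, 6.46% and 8.25% with it, again without overlap, a difference of 2.40 points. Untreated replicate 1 had the lowest share, and without it the difference was 1.56 points. That library also had 9.38% of its gene counts on mitochondrial genes, against 1.76% and 5.78% in the other untreated and 3.68 to 5.39% in the treated libraries, and the part of this in the result was not tested. Of the 2.40 points with all libraries, RPS27A accounted for 0.854, and 21 of the 28 genes had a higher share. The count over all genes is not given. With total counts alone the median log2 fold change was 0.34 for the members tested and -0.15 for all genes tested. With the 10 most abundant other genes left out, the share was 13.9% ± 0.736 uninduced, 10.3% ± 1.55 induced, 5.09% ± 1.62 without and 7.64% ± 1.17 with the drug in the parental line. No P value is given for the share, because the genes were chosen as a group with results known.

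**Figure D4:**
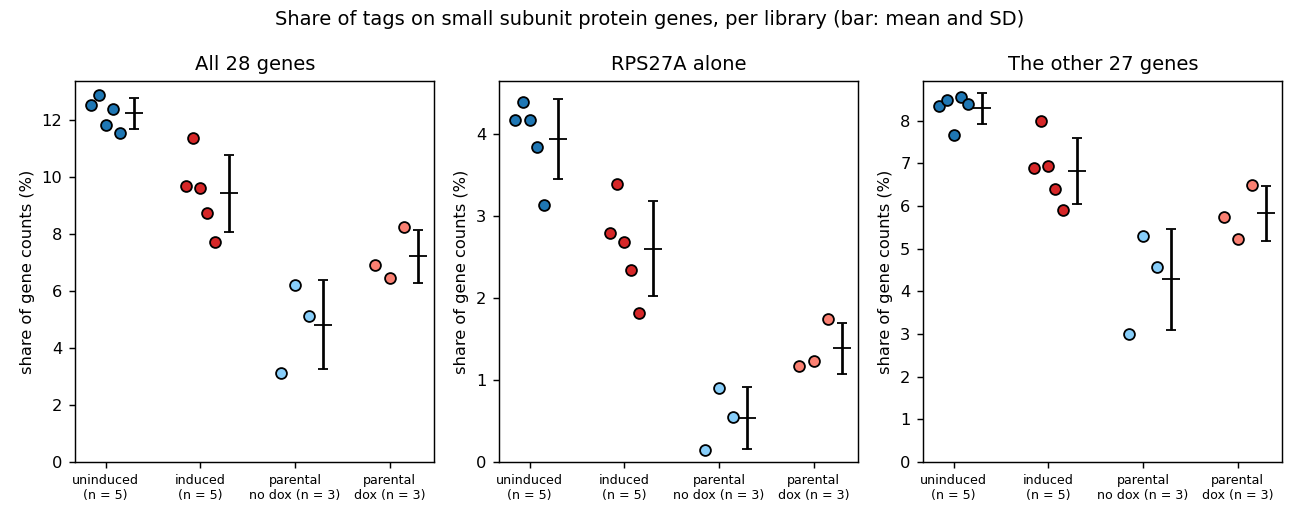
Percent of gene counts per library (points) taken by all 28 genes, by RPS27A and by the other 27, in the 4 groups, with the mean and SD beside them. The share of all 28 is 7.73 to 11.4% in induced against 11.5 to 12.9% in uninduced libraries, and 6.46 to 8.25% with against 3.13 to 6.20% without doxycycline in the parental line.

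Gene by gene, doxycycline changed no member in the parental line by the test. RPS7, RPS26 and RPS27 were under the filter, and 0 of the other 25 passed by edgeR, as did 0% of the 9124 genes tested in either direction. DESeq2's Wald test also called 0 members, and 0.0110% of all genes. At an unadjusted P below 0.05 there was 1 member, RPS27A, against 2.93% of all genes. The log2 fold change was above 0 for 23 of the 25 members and below 0 for 2, against 49.3% and 50.7% of all genes, and the median was 0.50 against -0.01. Without treated replicate 3 the median was 0.28 against -0.05. The standard errors, from 0.36 to 0.72, were larger than in the transgene line, where the largest was 0.35.

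RPS27A had the largest parental value. It was at 1397, 9019 and 5207 CPM without and 12450, 12040 and 20940 CPM with the drug (log2 fold change 1.54, standard error 0.68, adjusted P = 0.997 by edgeR). The groups did not overlap, but the untreated libraries themselves spanned more than the difference between the nearest libraries. RPSA, RPS2 and RPS3A were the other members without overlap, all higher with the drug, so that 4 of 25 stood apart in that direction and 0 in the other, against 4.87% and 4.66% of all genes. RPSA was at 84.2, 84.1 and 85.9 CPM without and 109.7, 99.3 and 137.7 CPM with doxycycline. RPS2 was at 185.7, 215.2 and 300.1 CPM without and 419.7, 318.2 and 310.5 CPM with it. RPS3A was at 54.7, 175.0 and 151.2 CPM without and 213.6, 192.6 and 293.4 CPM with it. These are small separations between 3 and 3 libraries, and their log2 fold changes were 0.45, 0.58 and 0.87. RPS3 and RPS4X overlapped between the groups, with log2 fold changes of 0.12 and 0.62. RPS6 and RPS18 had values below 0, at -0.31 and -0.20. The nuclear-retained RNAs (MALAT1, NEAT1, KCNQ1OT1 and MEG3, 1 of them at 0) summed to 471 to 1710 CPM without and 225 to 426 CPM with the drug, and their part in the parental result was not tested.

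The difference between the responses of the lines was tested in a single fit of all 16 libraries, which could be made for 27 members. The response of the transgene line was lower for 5 of them, where 2.20% of 12265 genes were called lower and 0.775% higher. They were RPS27A (difference of log2 fold changes -2.62, standard error 0.64), RPS4X (-2.15, 0.54), RPS3A (-1.96, 0.49), RPS2 (-1.25, 0.30) and RPSA (-1.23, 0.30), with adjusted P values of 0.0424 to 0.0450 from edgeR. None was called higher, 25 of the 27 differences were below 0 against 53.6% of all genes, and the median was -1.25 against -0.09. An unadjusted P below 0.05 was reached by 16 members and by 26.1% of all genes. RPS20 came next, at -1.86 with an adjusted P of 0.0531. These calls lay close to the threshold: 11 of the 16 fits that left out a single library called 0 members by edgeR. In those 11 fits at most 0.144% of all genes were called, and 12 to 16 members had an unadjusted P below 0.05. DESeq2's Wald test called 13, where 7.26% of all genes were lower. With edgeR on all libraries, 2 were called with DESeq2's size factors (1.33% of all genes lower). It was 0 with total counts alone (0.359%), with filterByExpr (0.00607%) or with no filter (0.148%). Total counts alone moved the median to -0.64, against 0.49 for all genes. This fit used a spread estimate shared by both lines, so the spread of the parental libraries counted for less than in their own fit. The standard errors of the difference for RPSA, RPS2 and RPS27A were below those of the parental fit alone (0.36, 0.38 and 0.68). For RPS4X and RPS3A they were above the parental ones, at 0.47 each.

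The nearest lists gave these values in the transgene line. Of 46 proteins of the 60S subunit tested, 13 fell and 6 rose, with a median of -0.10. RPL35 (-1.03) and RPL27A (-0.93) fell, and RPL23A (2.80), RPL6 (1.39) and RPL30 (1.23) rose on the log2 scale. Of 31 proteins of the mitochondrial small subunit, 10 fell and 3 rose, with a median of -0.22. AURKAIP1 (-1.10), MRPS18A (-0.96), MRPS26 (-0.92) and MRPS18B (-0.83) fell, and DAP3 (1.15) rose. For mRNAs of the mitochondrial genome, 8 of 13 fell and 0 rose, at a median of -0.71.

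Factors that build the 40S subunit divided evenly, with 11 of 59 lower and 11 higher and a median of -0.02. WDR75 (2.23), UTP6 (2.13) and NOL11 (1.27), of the early processome, and the late kinase RIOK2 (1.12) rose, and the rRNA methyltransferase FBL (-1.09) fell. Of 19 regulators that act on or with the 40S subunit, 3 fell and 4 rose, with a median of 0.12. CCDC124, which binds idle ribosomes, fell by 1.29, and the S6 kinase gene RPS6KB2 fell by 0.99. The recycling factor ABCE1 (0.76), the collision ligase ZNF598 (0.70) and the kinase gene RPS6KA3 (0.67) rose. In the parental line the medians were 0.25 for 60S proteins, 0.27 for mitochondrial small subunit proteins and 0.17 for mitochondrial genome mRNAs. They were -0.09 for assembly factors and 0.02 for regulators, against 0.50 for the members. For the difference between lines these medians were -0.59, -0.835, -1.19, -0.03 and -0.135 in that order, against -1.25. Differences between these lists and the 28 members were not tested.

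A start with C followed by pyrimidines, at least 5 in all, was searched on the transcribed strand at the annotated RefSeq start. It was present in 18 of the 25 members with a sequence (72.0%), against 4.07% of 35116 promoters and 5.23% of the 14540 promoters of tested genes. RPS2, RPS15A and RPS20 were not included. Of the 18, 9 fell on induction (median -0.45), and of the 7 others, which were RPS4X, RPS7, RPS15, RPS19, RPS26, RPS28 and RPS29, 3 fell (median -0.58). Of the 760 promoters of tested genes with the run, 177 belonged to genes that fell, where 19.8% of all genes tested fell. These are promoters, so a gene can count more than once. The annotated RefSeq start of RPS19 and RPS29 differs from that of the GENCODE transcript, so their window may not be the start in use. The run of RPS28 begins with C 1 base after its annotated start, and the study treats RPS4X as a TOP mRNA, so these 7 are not shown to lack a TOP sequence. Across the 25 members the length of the run and the log2 fold change had r = 0.20 and rho = 0.14. The longest run near the start, marked in capitals in the sequences above, had r = 0.28 and rho = 0.27. These values describe genes that share libraries and are not independent replicates.

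GC content of the transcript ran from 41.5 to 61.3% and had r = -0.18 and rho = -0.09 with the fold change over 28 members, while over 12922 tested genes these were -0.37 and -0.43. Transcript length (r = -0.01), number of annotated pseudogenes (r = 0.03) and uninduced level (r = -0.14) were as weakly related. The number of exons had r = -0.20 and rho = -0.26. In the annotation 7 members hold snoRNA genes inside them, RPSA, RPS2, RPS3, RPS3A, RPS12, RPS13 and RPS20, and all 7 fell (median -0.55), against 7 of the 21 others (median -0.32). Elsewhere the counts were different, with no test made. Of 60S proteins 3 of 18 hosts and 10 of 28 others fell, and of all genes 15.9% of 246 hosts and 19.9% of 12792 others.

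**Figure D5:**
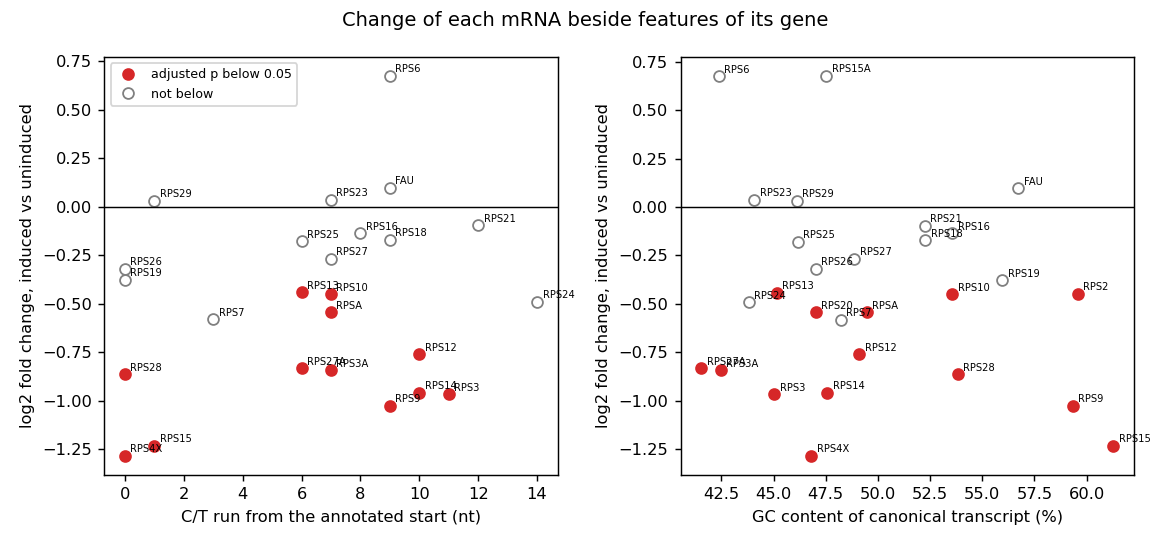
Log2 fold change on induction against the length of the C/T run at the annotated start (left, 25 members) and GC content of the canonical transcript (right, 28 members), with filled red points for the 14 that fell. Neither shows a clear trend, and RPS4X and RPS15 fell most with runs of 0 and 1.

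All 28 members have annotated pseudogenes, 1 to 74 each and 474 in all. Tags that aligned to more than 1 place were left out of the counts, 0.561 to 1.45 of them for each counted tag, so members such as RPS7, RPS15, RPS18, RPS26 and RPS27, all with few tags, may keep only part of them and their levels are uncertain. Levels are therefore not compared between members. The rate of such tags differed between libraries of a group. It was 1.33 in induced replicate 5, against 0.561 to 0.921 in the other induced libraries. Uninduced replicate 3 had 1.01, against 0.722 to 0.885 in the other uninduced ones. In the parental line it was highest in untreated replicate 1 (1.45) and treated replicate 3 (1.37). The part of this in the results was not tested. Genes on the opposite strand overlap 11 members, among them PIN4 at RPS4X, SH3D19 at RPS3A, CLHC1 at RPS27A and NDUFA7 at RPS28, and the use of strand in counting is not given in the sources used here.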

How the data were processed

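The values deposited by the authors are raw counts of tags on Ensembl genes, from Lexogen's pipeline for QuantSeq REV data on GRCh38. The aligner, annotation release, strand use and handling of duplicates are not given in the sources used here. Symbols and positions were taken from GENCODE, which matched 56104 of 60107 gene IDs, and start sequences from RefSeq. Genes were tested with edgeR 4.0.16 in R 4.3.3 (TMM scaling, quasi-likelihood F test) if their base mean was above 20, separately per line, with Benjamini-Hochberg adjustment over all genes tested and calls at an adjusted P below 0.05. A contrast over 16 libraries, with a spread estimate shared by both lines, tested the difference between lines. CPM values are TMM-scaled within a line. The standard error is the log2 fold change divided by the square root of the F statistic. Code was tested on simulated data. Alternatives used DESeq2 1.42.0, sva 3.50.0, other scalings and filters, GC offsets and libraries left out. Python 3.11.15 drew the plots.

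The members and lists were chosen with earlier results of these data known. Every member is accounted for, called members are given in every library, and up to 5 called genes with the largest change are named from other lists. Replicate numbers did not pair the libraries.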

Additional observations from a re-analysis of the deposited data

Results flagged for a closer look

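Of 58 groups of 5 libraries examined for a library far from its group, 3 had one, and chance gives about 1 in 20. RPSA was at 80.2 CPM in induced replicate 2 against 63.2 to 67.0 CPM in the other induced libraries. RPS15A was at 197.2 CPM in uninduced replicate 5 against 46.2 to 79.8 CPM in the other uninduced libraries. RPS26 was at 4.16 CPM in induced replicate 5 against 2.16 to 2.54 CPM in the others.

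By the fit with a spread estimate shared by both lines, the response to doxycycline differed between the lines for 5 members. The differences of log2 fold changes were -1.23 for RPSA, -1.25 for RPS2, -1.96 for RPS3A, -2.15 for RPS4X and -2.62 for RPS27A. The share of gene counts was lower in every induced library than in every uninduced one, a difference of -2.80 percentage points, and higher in every treated parental library than in every untreated one, by 2.40 points. The difference between these shifts was not tested.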

How the results depend on the processing

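In the transgene line the members' median minus that of all genes was -0.49 and between -0.54 and -0.43 over 20 alternatives. The number of members that fell was 14, where 19.8% of all genes fell. It was 7 with total counts alone (median of members -0.22, 10.7% of all genes) and 9 with no filter (8.04%). By edgeR it was 0 with 1 surrogate variable and 0 without uninduced replicate 3 and induced replicate 5 together (0% of all genes in both). DESeq2's Wald test called 17 (23.5%). Over all alternatives 13 to 18 members had an unadjusted P below 0.05, against 53.3% of all genes in the main fit. That share was not computed for the alternatives. Leaving out 1 library gave 6 members lower without induced replicate 4 (7.14% of all genes) to 16 without induced replicate 2 (23.8%). It gave 0 to 2 higher, with 2 without uninduced replicate 5, where 58.5% of all genes were called in either direction. The medians were -0.51 to -0.39 and the share differences -3.29 to -2.37 points. The share difference was -1.46 points without RPS27A. The cause of the lower counts was not tested. In the parental line the fits that left out 1 library gave 0 members in either direction, where at most 0.0223% of all genes were called. The medians were 0.28 to 0.71 and the share differences 1.56 (without untreated replicate 1) to 3.09 points. For the difference between lines, 5 members were called in the main fit, where 2.20% of all genes were lower. The 5 became 2 with DESeq2 size factors (1.33% of all genes), 0 with total counts alone (0.359%), 0 with filterByExpr (0.00607%) and 0 with no filter (0.148%). DESeq2's Wald test called 13 (7.26%), and 0 passed without uninduced replicate 3 and induced replicate 5 together (0%). Over the alternatives 8 to 19 members had an unadjusted P below 0.05, against 26.1% of all genes in the main fit, the only one with that share computed. Leaving out 1 library gave 0 to 15 lower and 0 higher. The count was 15 without uninduced replicate 5 (10.4%), 11 without treated parental replicate 2 (6.88%) and 9 without induced replicate 2 (6.25%). It was 5 without untreated parental replicate 3 (3.06%), 2 without untreated parental replicate 2 (0.658%) and 0 without each of the others (0.104% at most).

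Same-numbered libraries did not deviate together. The mean correlation was 0.0171 (-0.386 to 0.666) over 5 pairs in the transgene line and -0.0599 over 3 pairs in the parental line, and 1 of 5 and 1 of 3 libraries correlated best with their own number. With the replicate number as a block, 12 members fell (without RPS10 and RPS13), where 17.3% of all genes fell. In the parental line 0 members and 0% of all genes passed. In the difference between lines 3 members were lower (without RPS2 and RPSA), where 0.921% of all genes were.

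Signs turned only for members not called in the same comparison. With total counts alone the induction values became 0.089 for RPS16, 0.071 for RPS18, 0.12 for RPS21 and 0.049 for RPS25. RPS29 was at -0.003 with DESeq2's size factors and with its Wald test. GC offsets gave 0.013 for RPS16, -0.19 for RPS23 and -0.12 for RPS29, and with the replicate block 0.026 for RPS16, 0.048 for RPS21, -0.13 for RPS23 and -0.074 for RPS29. The surrogate variable gave -0.19 for FAU, 0.073 for RPS18, -0.43 for RPS23, 0.059 for RPS27 and -0.31 for RPS29, and the fit without uninduced replicate 3 and induced replicate 5 gave -0.091 for FAU, -0.089 for RPS23 and -0.14 for RPS29. Leaving out 1 library gave -0.071 to 0.20 for FAU, -0.19 to 0.17 for RPS23 and -0.15 to 0.16 for RPS29.

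In the parental line total counts alone gave -0.11 for FAU, -0.047 for RPS3, -0.13 for RPS15A and -0.061 for RPS16, and RPS9 was at -0.18 with the replicate block and -0.022 with GC offsets and the block. Leaving out 1 library gave -0.38 to 0.63 for FAU, -0.12 to 0.65 for RPS3, -0.57 to 0.44 for RPS6, -0.88 to 0.74 for RPS9, -0.29 to 0.77 for RPS14, -0.36 to 0.71 for RPS15, -0.23 to 0.61 for RPS15A, -0.05 to 0.37 for RPS16, -0.51 to 0.084 for RPS18 and -0.26 to 1.55 for RPS28. For the difference between lines total counts alone gave 0.41 for FAU, 0.15 for RPS16 and 0.45 for RPS18, no filter 0.009 for FAU and 0.005 for RPS18, and leaving out 1 library -0.53 to 0.25 for FAU and -0.32 to 0.11 for RPS18. The parental libraries hold fewer counts and their standard errors are wider.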
